A study of Sus scrofa with 9 samples.

Results

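Gene expression in the sow's mammary gland was compared between late pregnancy, 17 days before farrowing (day -17), and the first day after farrowing (day 1). The comparison used 6 of the 9 samples of the series, the 3 pools titled L-17 and the 3 titled L1. The remaining 3, taken 17 days after farrowing (day 17), entered the fit to share its estimate of the spread and are quoted only as levels. All samples came from Large White sows on a corn and soybean meal diet and were biopsied in the anterior glands of the right side, the first time at -17 ± 2 days. Each of 6 sows was sampled on every day, and each array carried RNA of 2 sows mixed in equal volumes. Which sows shared a pool is not given in the sources used here, so p-values measure the spread between pools, not between animals.

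The gland is a mixture of milk-making luminal epithelium, contractile myoepithelium, connective tissue, fat, vessels and immune cells. In late pregnancy the alveoli are built but secretion is held back. Around birth progesterone falls, the junctions between luminal cells close, and the cells turn to copious secretion of proteins, lipid, lactose, ions and antibacterial factors. In such whole-tissue RNA, fewer cells of a type and less RNA per cell cannot be told apart. The account below goes through gene families by role: transcription factors, secreted proteins, membrane proteins and enzymes.

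Per gene, values are linear MAS5 signals in the order pool 1, pool 2, pool 3, followed by the log2 difference, day 1 minus day -17, ± standard error in limma (n = 3 pools per day), and a p adjusted over all 15519 tested probe sets by the Benjamini-Hochberg method. The fit held day alone and did not pair the pools across days. A gene is said to rise or fall only where that adjusted p is under 0.05. Signals of different genes are not compared, because probe sets differ in brightness. Arrays had been scaled to 1 trimmed mean (500.088 to 500.112), and pools of 1 day had Spearman correlations of 0.931 to 0.971. Relative to that scale, 3736 probe sets (24.1%) were called, of which 1860 rose and 1876 fell. The split depended on the scale: quantile normalization gave 2034 and 1519, centring on the median 2474 and 1174, and scaling to the added E. coli control transcripts (E. coli scaling), which lowers every log2 difference by 0.43, gave 814 and 6271 and moved the median over all probe sets from -0.07 to -0.49. The control transcripts themselves rose with the day. Their mean log2 signal was 10.823 to 10.918 on day -17, 11.242 to 11.37 on day 1 and 12.102 to 12.227 on day 17. What moved them was not tested. Leaving out day 1 pool 3 gave 1198 and 912 probe sets, leaving out day -17 pool 3 gave 1328 and 996, and leaving out day -17 pool 2 gave 1432 and 1096.

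Over genes, each read from its brightest tested probe set, 1455 of 5670 (25.7%) were called: 865 rose (15.3%) and 590 fell (10.4%). At least 2-fold differences numbered 332 among the rises and 214 among the falls, and at least 8-fold differences 31 and 11. The 3 signals of day 1 all lay above those of day -17 for 1295 genes (22.8%) and all below for 1047 (18.5%), 41.3% in either direction. Of the 1455 calls, 742 held without each of the 9 arrays in turn, 517 rises and 225 falls. With E. coli scaling 372 genes rose (6.56%) and 2252 fell (39.7%), and the family counts given below for that scaling stand against these shares. Because it lowers every difference, that the 590 falls remained under it says nothing of their stability. Every rise or fall given below held in all these fits, and in the other alternatives, unless the exception stands beside it.

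A small set of genes went from dim to bright. Switched on was taken to mean a rise with all 3 day -17 signals under the 40th percentile of their array and all 3 day 1 signals at or above the 60th; switched off was the reverse. Of 5670 genes, 9 (0.159%) were switched on and 1 (0.0176%) was switched off. EDDM3B, a secreted relative of the pancreatic ribonucleases first known from the epididymis, had signals of 4.17, 2.27 and 3.30 on day -17 and 1111, 583 and 959.8 on day 1. All 3 pools of late pregnancy lay at or below percentile 7.0 of their arrays and all 3 pools of day 1 at or above percentile 74.9. The log2 difference was 8.08 ± 0.40, adjusted p = 1.98e-06, or 45.2-fold with a pseudocount of 16, which limits the weight of such dim signals.

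Of the other genes switched on, MUC4 and SLC6A14 encode membrane proteins of epithelial cells. MUC4, a large mucin of the apical surface, had 18.1, 29.2 and 29.7 on day -17 and 2918, 2453 and 2968 on day 1 (6.79 ± 0.26, adjusted p = 6.21e-07). SLC6A14, a sodium- and chloride-driven carrier of neutral and cationic amino acids, had 20.997, 37.4 and 5.48 on day -17 and 1933, 967 and 2643 on day 1 (6.71 ± 0.62, adjusted p = 9.64e-05). For both, the lowest day 1 pool was far above the highest pool of late pregnancy, though the rule itself requires a gap. TSPAN2, one of the tetraspanins that organise other membrane proteins, had 87.2, 79.4 and 51.5 on day -17 and 887, 1764 and 768 on day 1 (3.91 ± 0.32, adjusted p = 5.14e-05). Its day -17 pool 1 lay at percentile 39.9, just inside the limit.

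Secreted proteins made up another group. LBP, which carries bacterial lipopolysaccharide to its receptors, had 36.3, 51.6 and 34.9 on day -17 and 1055, 2359.9 and 1954 on day 1 (5.39 ± 0.28, adjusted p = 2.49e-06). LRG1, a leucine-rich glycoprotein of plasma, had 59.7, 39.8 and 39.97 on day -17 and 525, 846 and 569.7 on day 1 (3.79 ± 0.26, adjusted p = 1.66e-05). C4BPB, the beta chain of a protein that holds complement in check, had 48.3, 61.4 and 81.1 on day -17 and 778, 431 and 788 on day 1 (3.37 ± 0.28, adjusted p = 5.29e-05). In none of these did the pools of the 2 days overlap, which follows from the rule that chose them. The other genes switched on encode proteins of the cell interior. CIDEB, a lipid droplet protein, had 33.5, 49.3 and 59.4 on day -17 and 328, 519.8 and 300.0 on day 1 (3.01 ± 0.32, adjusted p = 0.000238). PGAM2, the muscle form of the glycolytic enzyme phosphoglycerate mutase, had 57.2, 59.7 and 43.4 on day -17 and 316, 318 and 422 on day 1 (2.72 ± 0.24, adjusted p = 7.83e-05). Of the 147 measured transcription factors none was among the 9.

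PDE6C, which encodes the catalytic subunit of the phosphodiesterase of cone photoreceptors, was the gene switched off, with 423, 416 and 366 on day -17 and 60.7, 45.5 and 72.1 on day 1 (-2.78 ± 0.56, adjusted p = 0.00648). The 3 late pregnancy pools lay close together and all 3 day 1 pools far below them, though here too the rule requires a gap. On day 17 its mean signal was 17.6 ± 16.1 (SD, n = 3 pools). The 9 genes switched on all stood at or above percentile 63.9 in every day 17 pool, where MUC4 reached 5244 ± 1866, LBP 1927 ± 230.1 and EDDM3B 972 ± 451.

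The percentile limits set how many genes count as switched. With the 30th and 70th percentiles, 3 remained on (EDDM3B, MUC4 and SLC6A14) and 0 off. Just outside the limits were HP, EGF and ACSL6, each with 1 pool of late pregnancy above the 40th percentile. Without day -17 pool 1 HP and EGF counted as on (11 in all), and without day -17 pool 2 ACSL6 did (10). Without day 1 pool 1, S100G joined (10). Genes counted as off were 4 without day -17 pool 2, adding CYP2A19, PON3 and ALDH1L1, and 3 without day 1 pool 1, adding CA3 and RBP4.

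**Figure D1:**
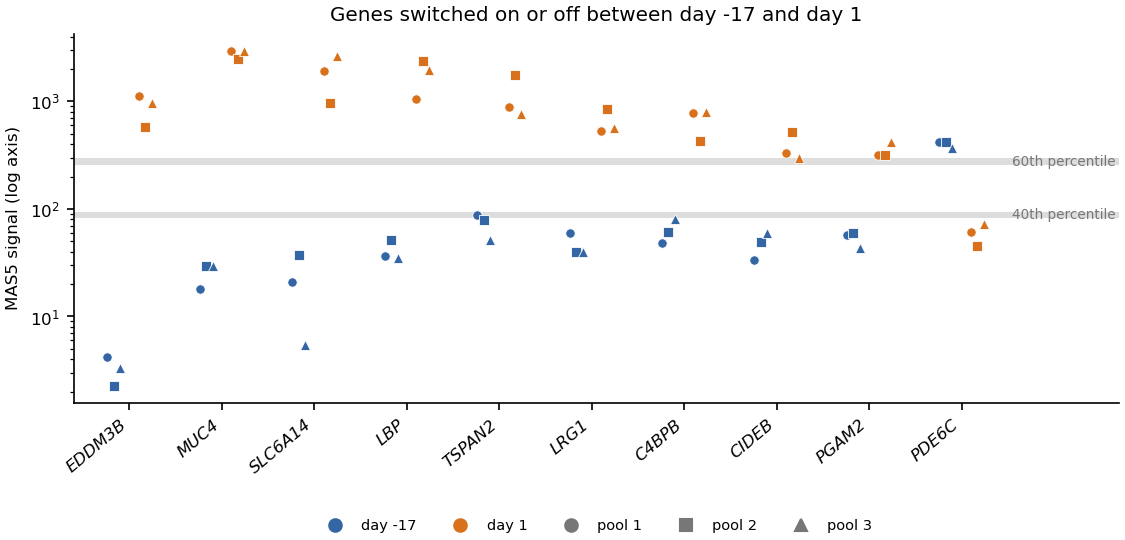
MAS5 signal (log axis) of the 9 genes switched on and of PDE6C, switched off, 1 point per pool. Day -17 is in blue, day 1 in orange and the pool number is given by shape. The grey bands span the 40th and 60th percentiles of the 6 arrays of these 2 days. For every gene the 3 points of one day lie apart from the 3 of the other, as the rule for switching requires. EDDM3B spans the widest range, from 2.27 to 1110.5.

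The largest falls were led by enzymes. CYP2A19, a cytochrome P450 of drug and steroid metabolism, had 1665, 217 and 1419 on day -17 and 3.49, 21.9 and 7.65 on day 1, a log2 difference of -6.58 ± 0.96, adjusted p = 0.00142 (31.8-fold with a pseudocount of 16). Other P450 genes of high similarity may share its probes. CA3, which hydrates carbon dioxide in fat and muscle, had 7592, 1657 and 5732 on day -17 and 594, 59.6 and 65.9 on day 1 (-4.97 ± 0.86, adjusted p = 0.00328). Day 1 pool 1 stood above its sister pools, yet below all pools of late pregnancy. PON3, an antioxidant lactonase, had 704, 189.9 and 658 on day -17 and 42.6, 17.6 and 42.0 on day 1 (-3.82 ± 0.67, adjusted p = 0.00333). CES1, a carboxylesterase that cleaves esters and lipids, had 1291, 363 and 1498 on day -17 and 122.8, 58.9 and 122 on day 1 (-3.21 ± 0.60, adjusted p = 0.00446).

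Other large falls served lipid, sugar and sulphur metabolism. DGAT2, ALDOC, ME1 and CDO1 are in no family and were chosen after their values were seen. DGAT2, which completes triglycerides, had 3179, 778 and 3119.7 on day -17 and 234, 86.6 and 139.7 on day 1 (-3.80 ± 0.53, adjusted p = 0.00102). ALDOC, an aldolase, had 3112, 488 and 1939 on day -17 and 202, 100.4 and 166 on day 1 (-3.26 ± 0.56, adjusted p = 0.00309). ME1, the cytosolic malic enzyme that supplies NADPH, had 1924, 381 and 1929 on day -17 and 294, 82.7 and 100.6 on day 1 (-3.06 ± 0.62, adjusted p = 0.00708). CDO1, which oxidises cysteine, had 3462, 631 and 2634 on day -17 and 599, 111 and 175 on day 1 (-2.98 ± 0.68, adjusted p = 0.0117). In all 4 the late pregnancy pool 2 was the lowest of its day.

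That shape recurred. Of the 20 largest falls, 10 had a day -17 pool 2 below 50% of both other pools, against 19 of all 590 falls (3.22%) and 78 of all 5670 genes (1.38%). Adipocyte markers followed it: for all 11 measured members of that list the lowest late pregnancy pool was pool 2, and their summed signals were 40067, 14115 and 26498 on day -17 and 36123, 22951 and 27179 on day 1. Of the 11, CIDEA, which also serves milk lipid secretion, rose (2.30 ± 0.45), and RBP4 and GPD1 fell; their values stand below. ADIPOQ, the adipocyte hormone adiponectin, had 547, 73.9 and 319 on day -17 and 195, 33.5 and 4.58 on day 1 (-2.92 ± 1.23, adjusted p = 0.111), and passed as a fall with the pools blocked by number (0.0431) and without day 1 pool 1 (0.0193). LIPE, hormone-sensitive lipase, had 1425, 257 and 876 on day -17 and 471, 4.35 and 110.3 on day 1 (-3.49 ± 1.36, adjusted p = 0.0864), and passed as a fall with E. coli scaling (0.039), with the pools blocked by number (0.0249) and without day 1 pool 1 (0.012). The part of fat content in these falls was not tested.

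RBP4, the plasma carrier of retinol, had 1017, 352 and 581 on day -17 and 241, 42.0 and 12.9 on day 1 (-3.55 ± 0.88, adjusted p = 0.0172), and its call ended without day -17 pool 1 or 3 (adjusted p from 0.0573 to 0.0648). GPD1, glycerol-3-phosphate dehydrogenase, had 846, 204 and 651 on day -17 and 287, 67.4 and 102 on day 1 (-1.95 ± 0.61, adjusted p = 0.0429), and its call ended without day -17 pool 1 or 3, day 1 pool 2 or 3 or day 17 pool 1, 2 or 3 or in a fit of the 6 samples, after median centring, unfiltered, with no trend term or after quantile normalization (adjusted p from 0.0523 to 0.134). A second shape ran the other way, with day -17 pool 1 below 50% of both other pools. It appeared in 2 of the 20 largest falls and 13 of the 590 (2.20%), near its share of all genes (91 of 5670, 1.605%). MLPH, which tethers melanosomes and other vesicles to motors, had 199, 932 and 569.6 on day -17 and 58.7, 96.0 and 87.4 on day 1 (-2.58 ± 0.47, adjusted p = 0.00393). FOXA1, described with the transcription factors, had the same shape. Of 13 measured luminal epithelial markers 5 rose and 1 fell, and of the late pregnancy pools pool 1 was the lowest for 11. Their signals summed to 26068, 45451 and 44613 on day -17 and 51402, 69945 and 74047 on day 1, sums in which bright genes weigh most. Whether the order of the pools bears on genes of the second shape was not tested.

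**Figure D2:**
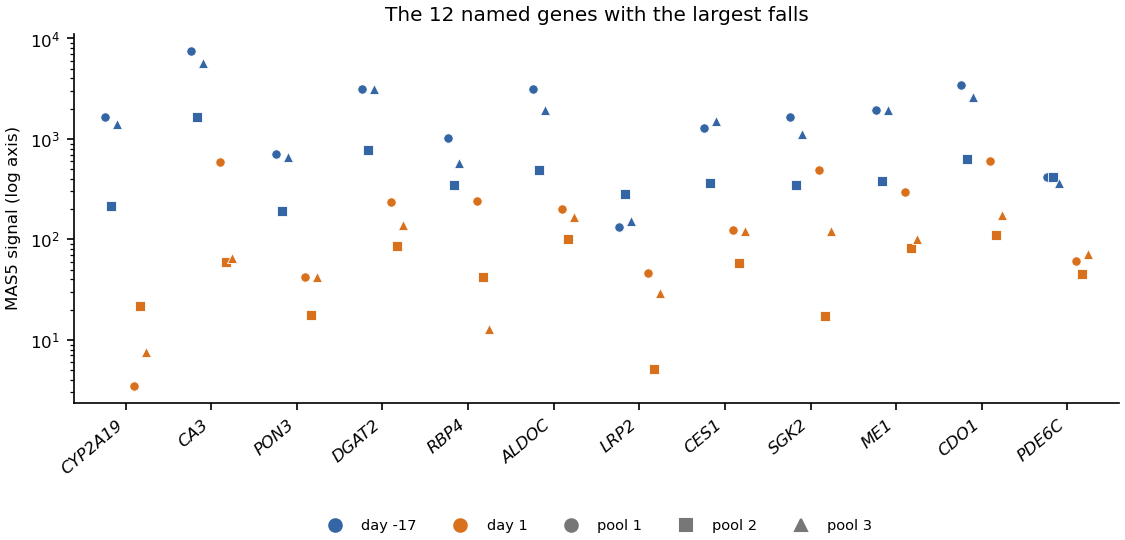
MAS5 signal (log axis) of the 12 named genes with the largest falls, 1 point per pool, with day -17 in blue, day 1 in orange and the pool number by shape. In CYP2A19, CA3, PON3, DGAT2, RBP4, ALDOC, CES1, SGK2, ME1 and CDO1 the square of pool 2 lies below the other points of day -17. PDE6C shows no such gap, and in LRP2 pool 2 is the highest of that day.

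Sorted into 73 families by symbol, the genes were counted by class. Of 464 measured membrane protein genes, 93 rose and 43 fell (20.04% and 9.27%), against 15.3% and 10.4% of all genes. The TMEM group, defined by name alone, supplied 95 of the 464 genes, 33 of the rises and 7 of the falls. Its share of rises, 34.7%, was above that of the class as a whole. Of 237 secreted protein genes, 34 rose and 20 fell (14.3% and 8.44%), of 147 transcription factors and coregulators 21 and 22 (14.3% and 14.97%), and of 164 genes in the enzyme and other intracellular families 31 and 19 (18.9% and 11.6%). Median log2 differences were 0.05, -0.25, -0.09 and 0.03 in that order, against 0.00 over all genes. With E. coli scaling rises and falls numbered 48 and 146 (10.3% and 31.5%) of membrane protein genes, 23 and 74 (9.70% and 31.2%) of secreted protein genes, 4 and 62 (2.72% and 42.2%) of transcription factors and 16 and 63 (9.76% and 38.4%) of the intracellular families, against 6.56% and 39.7% of all genes in that fit. After median centring they were 106 and 29, 43 and 13, 25 and 11, and 40 and 13, against 1140 and 361 of all genes. The balance of transcription factors turned with the scale, since 22 rose and 14 fell after quantile normalization too.

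Single arrays moved the count of the secreted class by more than 1.5 times. Without day 1 pool 1, 38 rose and 65 fell, whereas without day -17 pool 3 it was 26 and 7; with the pools blocked by number it was 39 and 35. Fibroblast markers, none of which rose and 2 of 11 of which fell, had summed signals of 127255, 82522 and 108338 on day -17 and 114441, 49081 and 68717 on day 1. Of the day 1 pools the sum was highest in pool 1. The part of connective tissue content in the secreted counts was not tested. Transcription factors called numbered 20 without day -17 pool 3, 21 without day 1 pool 3, 22 without day 1 pool 2, 26 without day -17 pool 1 and 28 without day -17 pool 2. Enzymes and other intracellular proteins called numbered 28 without day 1 pool 3, 31 without day -17 pool 3 and 33 without day 1 pool 2. Calls that held without every array numbered 80 of 136 for membrane proteins, 29 of 54 for secreted proteins, 25 of 50 for the intracellular families and 14 of 43 for transcription factors.

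**Figure D3:**
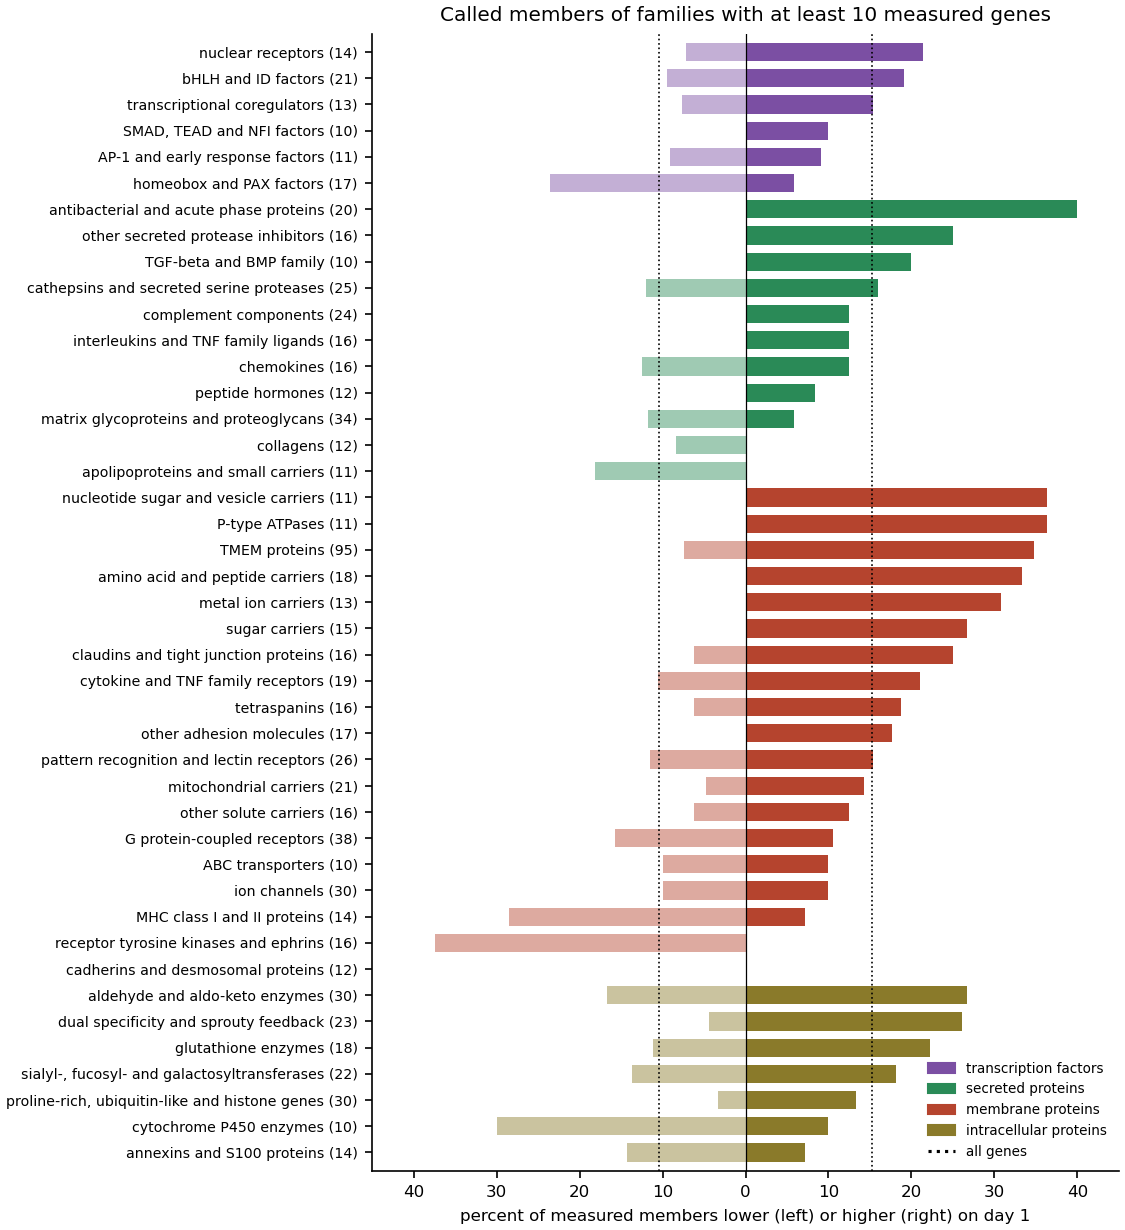
Percent of measured members called lower (pale bars, to the left) or higher (full bars, to the right) on day 1 in each family with at least 10 measured genes, with the number measured in brackets and colours for the 4 classes; the dotted lines mark all genes (10.4% lower, 15.3% higher). Antibacterial and acute phase proteins reach the longest bar to the right (8 of 20) and receptor tyrosine kinases 37.5% lower, while cadherins and desmosomal proteins have no bar.

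Among transcription factors, several regulators of growth and development fell. ETV5, an ETS factor downstream of receptor tyrosine kinases, had 313, 799 and 588 on day -17 and 109, 154 and 138 on day 1 (-1.999 ± 0.35, adjusted p = 0.00334). HES1, the repressor induced by Notch signalling, had 762, 999 and 955 on day -17 and 432, 359 and 331 on day 1 (-1.27 ± 0.18, adjusted p = 0.00124). MYC, a driver of growth and division, had 1682, 2532 and 2064 on day -17 and 1137, 1292 and 1316 on day 1 (-0.73 ± 0.16, adjusted p = 0.00939). For these 3 genes every day 1 pool lay below every pool of late pregnancy. FOXN3, a forkhead repressor, fell (-1.01 ± 0.20, adjusted p = 0.00646), and CEBPB, a C/EBP factor needed for alveolar development, fell too (-0.62 ± 0.14, adjusted p = 0.0126). THRA, a thyroid hormone receptor, fell by 1.08 ± 0.16, but its other probe set differed in sign and the call ended with the mean over its probe sets (adjusted p = 0.775).

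Other factors rose. CITED2, a coregulator that competes with hypoxia-inducible factor, had 1339, 975 and 1028 on day -17 and 2454, 2736 and 2674 on day 1 (1.25 ± 0.16, adjusted p = 0.000623). ATF4, which turns on amino acid synthesis and transport under stress, had 5368, 4563 and 5178 on day -17 and 7998, 7693 and 9326 on day 1 (0.73 ± 0.11, adjusted p = 0.00187). Both had all day 1 pools above all pools of late pregnancy. SREBF2, the master regulator of cholesterol synthesis, had 533, 723 and 624 on day -17 and 1092, 1375 and 1209 on day 1 (0.97 ± 0.15, adjusted p = 0.00186), although its other probe set differed in sign and the call ended with the mean over its probe sets (adjusted p = 0.37). XBP1, which expands the endoplasmic reticulum of secretory cells, had 9496, 9669.7 and 10423 on day -17 and 14345, 18120.0 and 16648 on day 1 (0.73 ± 0.12, adjusted p = 0.00228), and its call ended with E. coli scaling (adjusted p = 0.0615).

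Rises of the same size were lost with E. coli scaling in other families too. NR1H3, the oxysterol receptor LXR alpha, rose by 0.85 ± 0.18, lost with E. coli scaling (adjusted p = 0.0661). RORA, an orphan nuclear receptor, rose by 0.91 ± 0.18, lost with E. coli scaling (adjusted p = 0.0537). EPAS1, a hypoxia-inducible factor, rose by 0.86 ± 0.18, lost with E. coli scaling (adjusted p = 0.0904). CREM, a cAMP-responsive factor with 2 of its other 3 probe sets of opposite sign, rose by 0.70 ± 0.15, lost with E. coli scaling or with the mean over its probe sets (adjusted p from 0.207 to 0.681). CEBPD, a C/EBP factor of acute phase and involution, rose by 0.99 ± 0.24, lost without day -17 pool 3 or with E. coli scaling (adjusted p from 0.0637 to 0.109).

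Family by family, the counts were small. Of 4 measured forkhead factors 0 rose and 3 fell (0 and 3 with E. coli scaling). Called members numbered 1 without day -17 pool 2 or 3 or day 1 pool 3. FOXA1, the pioneer factor of hormone-sensing luminal cells, had 153, 756 and 662 on day -17 and 40.6, 167 and 63.1 on day 1 (-2.50 ± 0.65, adjusted p = 0.0208), so that day -17 pool 1 lay within the day 1 range, and its call ended without day -17 pool 2 or 3 or day 1 pool 3 (adjusted p from 0.0721 to 0.0784). Of 17 homeobox and PAX factors 1 rose and 4 fell (0 and 8 with E. coli scaling), but 2 rose and 1 fell after quantile normalization and 3 and 1 after median centring. Members called came to 0 without day 1 pool 3, 1 without day -17 pool 1 or 2, 2 without day 1 pool 2 and 3 without day -17 pool 3 or day 17 pool 1. MEIS1, a HOX partner, had the largest of these falls, with 1336, 889.7 and 1032 on day -17 and 735, 158 and 269 on day 1 (-1.76 ± 0.44, adjusted p = 0.0173), and its call ended without day -17 pool 1 or day 1 pool 3 (adjusted p from 0.0517 to 0.0652).

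Of 14 nuclear receptors 3 rose and 1 fell (0 and 5 with E. coli scaling), of 21 bHLH and ID factors 4 rose and 2 fell (1 and 10 with E. coli scaling), and of 4 C/EBP factors 2 rose and 1 fell (0 and 1 with E. coli scaling). Called bHLH and ID factors numbered 3 without day -17 pool 3, and called C/EBP factors 1. Of 6 STAT factors 1 rose and 1 fell (0 and 5 with E. coli scaling), with 0 and 1 after quantile normalization and 1 and 0 after median centring, and neither call was firm. STAT5B, a mediator of prolactin and growth hormone, had 3237, 4917 and 5316 on day -17 and 2237, 2793 and 2990.0 on day 1 (-0.73 ± 0.22, adjusted p = 0.0381); its other probe set differed in sign, the mean over both gave a difference of 0.04 instead, and the call ended without day -17 pool 2 or 3, day 1 pool 1, 2 or 3 or day 17 pool 1 or in a fit of the 6 samples, with the mean over its probe sets, after median centring or with no trend term (adjusted p from 0.0536 to 0.875). STAT3, which drives involution, had 1819, 1824 and 1765 on day -17 and 2263, 2833 and 2249 on day 1 (0.43 ± 0.14, adjusted p = 0.0487), and its call ended without day -17 pool 1, 2 or 3, day 1 pool 2 or 3 or day 17 pool 2 or 3 or in a fit of the 6 samples, with E. coli scaling, unfiltered, with no trend term, after quantile normalization or with the pools blocked by number (adjusted p from 0.0519 to 0.983). The number of called members was 0 without day -17 pool 2 or 3 or day 1 pool 2 or 3 and 1 without day -17 pool 1, day 1 pool 1 or day 17 pool 1, 2 or 3.

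Of 5 measured circadian clock genes 2 rose and 2 fell (0 and 2 with E. coli scaling). CRY2, a repressor of the clock, fell (-1.67 ± 0.48, adjusted p = 0.0302), a call that ended without day -17 pool 1 or 3 or day 1 pool 2 or 3 or in a fit of the 6 samples (adjusted p from 0.0612 to 0.111). DBP, a clock output factor, fell (-0.83 ± 0.21, adjusted p = 0.0202), a call that ended without day -17 pool 1 or 3 or day 1 pool 2 (adjusted p from 0.0507 to 0.0672). ARNTL, the BMAL1 activator, rose (0.74 ± 0.23, adjusted p = 0.0388), a call that ended without day -17 pool 1, 2 or 3, day 1 pool 2 or 3 or day 17 pool 2 or in a fit of the 6 samples, with E. coli scaling, unfiltered or with no trend term (adjusted p from 0.0526 to 0.263). PER1, another repressor, rose (0.58 ± 0.16, adjusted p = 0.0272), a call that ended without day -17 pool 1 or 2 or day 1 pool 2 or 3 or in a fit of the 6 samples or with E. coli scaling (adjusted p from 0.0516 to 0.469). Called members numbered 0 without day -17 pool 1 or day 1 pool 2, 1 without day -17 pool 3 or day 1 pool 3 and 2 without day -17 pool 2. The hour of the biopsies is not given in the sources used here. Of 11 early response factors, FOS rose (1.42 ± 0.43, adjusted p = 0.0367) beside the fall of MYC, and its call ended without day -17 pool 1, 2 or 3, day 1 pool 1 or 2 or day 17 pool 1 or in a fit of the 6 samples, with E. coli scaling or with no trend term (adjusted p from 0.0517 to 0.126). 

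**Figure D4:**
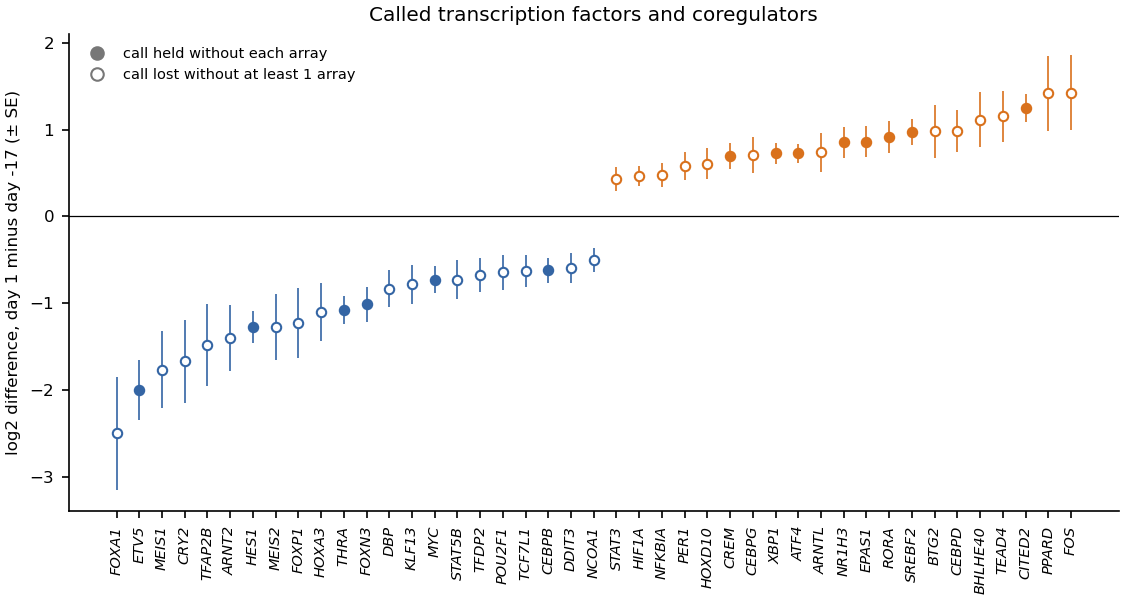
Log2 difference, day 1 minus day -17, with its standard error in limma (n = 3 pools per day) for the 43 called transcription factors and coregulators, falls in blue and rises in orange. Filled points are the 14 calls that held without each of the 9 arrays, and open points are the others, among them FOXA1 at -2.50.

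Among secreted growth factors, EGF moved most. EGF, the epidermal growth factor found in milk, had 106, 65.0 and 70.3 on day -17 and 4369, 1599.8 and 2529 on day 1 (5.05 ± 0.32, adjusted p = 7.95e-06), so its lowest day 1 pool stood far above its highest pool of late pregnancy. TGFA, which binds the same receptor, had 152, 409.8 and 229 on day -17 and 57.2, 119 and 91.2 on day 1 (-1.51 ± 0.44, adjusted p = 0.0319), and its call ended without day -17 pool 2 or 3 or day 1 pool 1 or 3 (adjusted p from 0.0708 to 0.112). ANGPTL4, an inhibitor of lipoprotein lipase, had 264, 98.1 and 149 on day -17 and 917, 334 and 506 on day 1 (1.78 ± 0.39, adjusted p = 0.0101). NUCB2, the calcium-binding precursor of nesfatin, had 1329.6, 1029 and 966 on day -17 and 3572, 5459 and 7907 on day 1 (2.29 ± 0.26, adjusted p = 0.000329) and was the 1 called gene of 12 in the hormone list, where 3 were called with the pools blocked by number and 2 after median centring. Members called came to 2 without day 17 pool 1 or 2 and 7 without day 1 pool 1.

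FGF12 and FGF13 are relatives of the fibroblast growth factors that act inside the cell. FGF12 had 117, 131 and 69.7 on day -17 and 279, 277 and 222 on day 1 (1.34 ± 0.31, adjusted p = 0.0124), and FGF13 had 485, 692 and 416 on day -17 and 271, 150.1 and 197 on day 1 (-1.37 ± 0.26, adjusted p = 0.00502), so the pair moved in opposite directions without overlap of the days. IGF1, insulin-like growth factor 1, rose (0.82 ± 0.21, adjusted p = 0.0185), a call that ended without day -17 pool 2 or 3 or with E. coli scaling or with the mean over its probe sets (adjusted p from 0.0553 to 0.164). IGF2 fell (-0.96 ± 0.24, adjusted p = 0.0157), with 3 of its other 8 probe sets of opposite sign, and its call ended without day 1 pool 3 or with the mean over its probe sets (adjusted p from 0.0637 to 0.631). TGFB1 rose (0.64 ± 0.14, adjusted p = 0.0103), a call that ended with E. coli scaling or with the mean over its probe sets (adjusted p from 0.128 to 0.304). Of 4 genes listed as WNT ligands and antagonists 0 were called (0 and 3 with E. coli scaling), and 1 rose after quantile normalization, after median centring or without day 1 pool 3. CYR61 came nearest (1.01 ± 0.35, adjusted p = 0.0611), though it is a matrix-bound signalling protein and neither a WNT ligand nor a WNT antagonist. It passed after quantile normalization (0.0416), after median centring (0.0359), with pool number as a random effect (0.0489) and without day 1 pool 3 (0.0111).

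Of the families with at least 10 measured genes, defence proteins had the largest share of rises: of 20 measured antibacterial and acute phase genes 8 rose and 0 fell (7 and 4 with E. coli scaling). That rank did not hold in every fit. Sugar carriers had a larger share after quantile normalization, and P-type pumps after median centring or with the pools blocked by number. With the pools blocked by number 8 defence genes rose and 3 fell, with the mean over probe sets 8 and 1, and without day 1 pool 1 8 and 2. HP, haptoglobin, which binds free haemoglobin, had 96.4, 70.4 and 33.3 on day -17 and 7595, 13444 and 13724 on day 1 (7.52 ± 0.39, adjusted p = 2.49e-06). PGLYRP1, which binds bacterial peptidoglycan, had 839, 924 and 1234.02 on day -17 and 20793, 24987 and 24549 on day 1 (4.57 ± 0.20, adjusted p = 7.77e-07). PIGR, the receptor that carries IgA and IgM across the epithelium, had 1114, 1480.3 and 1411 on day -17 and 19505, 15929.7 and 23919 on day 1 (3.88 ± 0.16, adjusted p = 7.41e-07). The days were apart in all 3, and in PGLYRP1 the 3 day 1 pools lay within 20793 to 24987.

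The other members that rose are named after their values were seen. LPO, the lactoperoxidase of milk, had 22.2, 36.8 and 6.498 on day -17 and 204, 64.1 and 121 on day 1 (2.74 ± 0.64, adjusted p = 0.0126), and LTF, the iron-binding lactoferrin, had 7665, 6499 and 9865 on day -17 and 17451, 26356 and 21439 on day 1 (1.44 ± 0.27, adjusted p = 0.00445). NPG4, a protegrin peptide of pig leukocytes whose probe set may read its near-identical copies, had 2.11, 25.6 and 3.11 on day -17 and 62.4, 88.6 and 64.0 on day 1 (3.68 ± 0.86, adjusted p = 0.0127). Of these 2 days, LPO reached the 40th percentile of its array only in day 1 pools 1 and 3, and NPG4 only in day 1 pool 2. Both therefore passed the filter with the help of day 17. The remaining measured genes of the neutrophil marker list did not pass. FCGR3A, an Fc receptor, had 1353, 1628 and 1479 on day -17 and 1478, 823 and 539 on day 1 (-0.77 ± 0.30, adjusted p = 0.0859), and passed as a fall with E. coli scaling (0.0143) and without day 1 pool 1 (0.00357). S100A12, a calcium-binding alarm protein, had 135, 42.95 and 111 on day -17 and 114, 2.83 and 4.12 on day 1 (-2.97 ± 1.51, adjusted p = 0.176), and passed as a fall without day 1 pool 1 (0.0376). The neutrophil marker list, which counts PGLYRP1 among its 3 measured members, summed to 2327, 2595 and 2824 on day -17 and 22385, 25813 and 25092 on day 1. BPIFA2, a secreted lipid-binding protein, completed the 8 rises (1.64 ± 0.53, adjusted p = 0.0466), with a call that ended without day -17 pool 2 or 3, day 1 pool 1, 2 or 3 or day 17 pool 1, 2 or 3 or in a fit of the 6 samples, with E. coli scaling, unfiltered or after quantile normalization (adjusted p from 0.0501 to 0.124). Its 6 signals all lay under the 40th percentile of their arrays, so it passed the filter through day 17.

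Among chemokines and cytokines, CXCL2, CCL28 and TNFSF13 rose. CXCL2, which attracts neutrophils, had 419.7, 539 and 339 on day -17 and 2729, 4571 and 2901 on day 1 (2.96 ± 0.24, adjusted p = 5.07e-05). CCL28, which draws IgA-producing cells to mucosal tissue, had 1577, 1451 and 2224 on day -17 and 4269, 5505 and 6870.1 on day 1 (1.66 ± 0.19, adjusted p = 0.000416). TNFSF13, or APRIL, a survival factor of plasma cells, had 504, 462 and 563 on day -17 and 1479.8, 1883 and 2149 on day 1 (1.84 ± 0.16, adjusted p = 5.99e-05). The joining chain of IgA and IgM, JCHAIN, did not pass (0.10 ± 0.22, adjusted p = 0.779) in any fit run. SPP1, osteopontin, rose (2.89 ± 0.94, adjusted p = 0.0481), but the days overlapped and its call ended without day -17 pool 1 or 3, day 1 pool 2 or 3 or day 17 pool 3 or in a fit of the 6 samples, with E. coli scaling, unfiltered, with no trend term or after quantile normalization (adjusted p from 0.0545 to 0.144).

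In the other direction, CCL8, an attractant of monocytes, fell (-1.67 ± 0.47, adjusted p = 0.0286), a call that ended without day -17 pool 2 or 3 or day 1 pool 2 or 3 or in a fit of the 6 samples (adjusted p from 0.0502 to 0.106). CXCL9, an interferon-induced attractant of T cells, fell (-1.42 ± 0.45, adjusted p = 0.0432), a call that ended without day -17 pool 2 or 3, day 1 pool 2 or 3 or day 17 pool 1 or 3 or in a fit of the 6 samples, after median centring, unfiltered, with no trend term, after quantile normalization or with the pools blocked by number (adjusted p from 0.053 to 0.152). In all, of 16 chemokines 2 rose and 2 fell (2 and 6 with E. coli scaling), and of 16 interleukins and TNF ligands 2 rose and 0 fell (1 and 5 with E. coli scaling), with 1 and 0 after quantile normalization. Called chemokines numbered 9 without day 1 pool 1 and 2 without day -17 pool 2 or 3 or day 1 pool 2. Called interleukins and TNF ligands numbered 6 without day 1 pool 1, and 1 without day -17 pool 1 or 3, day 1 pool 3 or day 17 pool 3.

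Of 24 genes in the complement list, which also holds relatives of C1q that are not complement components, 3 rose and 0 fell (2 and 3 with E. coli scaling). With the pools blocked by number it was 4 and 1, and without day 1 pool 1 there were 9 calls. Only C4BPB among the 3 rises belongs to the complement system. Besides C4BPB, C1QTNF12, a secreted hormone-like relative of complement C1q, had 8.71, 7.67 and 20.5 on day -17 and 69.3, 67.2 and 146 on day 1 (2.98 ± 0.49, adjusted p = 0.00253). Of these signals only that of day 1 pool 3 reached the filter percentile of its array. The probe set of C1QTNF12 thus passed the filter with the help of day 17, and the size of its difference is uncertain. C1QTNF5, another relative, rose (0.84 ± 0.21, adjusted p = 0.0194), a call that ended without day -17 pool 2 or day 1 pool 3 or with E. coli scaling (adjusted p from 0.059 to 0.164).

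Among protease inhibitors, 3 of 7 measured serpins fell, the other 4 were not called and none rose (0 and 3 with E. coli scaling); without day 1 pool 1 there were 5 calls. SERPINE2, which inhibits thrombin and plasminogen activators, had 415, 959 and 870.3 on day -17 and 224, 317 and 308 on day 1 (-1.33 ± 0.29, adjusted p = 0.0098). SERPINA1, alpha-1-antitrypsin, had 523, 1082 and 814 on day -17 and 311, 398 and 335 on day 1 (-1.16 ± 0.24, adjusted p = 0.00782), and SERPINB1, an inhibitor of neutrophil proteases, fell as well (-0.70 ± 0.15, adjusted p = 0.00978). In SERPINE2 and SERPINA1 every pool of late pregnancy lay above every day 1 pool.

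Of 16 inhibitors outside the serpins 4 rose and 0 fell (2 and 4 with E. coli scaling), and without day 1 pool 1 there were 10 calls. WAP, the whey acidic protein with the disulphide-rich fold that names the WFDC genes, rose (5.41 ± 0.23, adjusted p = 7.77e-07). WFDC1, with the same fold, had 624, 662 and 649 on day -17 and 2886, 2050.5 and 2316 on day 1 (1.89 ± 0.14, adjusted p = 2.6e-05). SLPI, an inhibitor of leukocyte elastase at mucosal surfaces, rose (1.06 ± 0.26, adjusted p = 0.0155), a call that ended without day -17 pool 2 or with E. coli scaling (adjusted p from 0.0511 to 0.081). TIMP1, an inhibitor of matrix metalloproteases, rose (0.59 ± 0.16, adjusted p = 0.0285), a call that ended without day -17 pool 2 or 3 or day 1 pool 3 or in a fit of the 6 samples or with E. coli scaling (adjusted p from 0.0568 to 0.459).

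Proteases were called in both directions. Of 25 cathepsins, serine proteases and carboxypeptidases 4 rose and 3 fell (3 and 9 with E. coli scaling), and 6 and 8 with the pools blocked by number. CPM, a carboxypeptidase anchored to the cell surface, had 2557, 1163 and 3387 on day -17 and 7444, 13684 and 10397 on day 1 (2.24 ± 0.36, adjusted p = 0.00229), and CTSZ, a lysosomal cathepsin, had 2742, 2029 and 2094 on day -17 and 3793, 4876 and 7529 on day 1 (1.19 ± 0.23, adjusted p = 0.0057). PRSS8, the epithelial protease prostasin, rose (1.41 ± 0.39, adjusted p = 0.0275), a call that ended without day -17 pool 1 or 3 or day 1 pool 2 or 3 or in a fit of the 6 samples or with E. coli scaling (adjusted p from 0.0516 to 0.0893). ST14, the related matriptase, rose (1.19 ± 0.28, adjusted p = 0.0129), a call that ended without day 1 pool 3 (adjusted p = 0.0508). The number of called members was 3 without day -17 pool 3 or day 1 pool 3, 4 without day 1 pool 2 and 13 without day 1 pool 1. MMP7, an epithelial metalloprotease, was the largest fall among proteases, with 343, 4958 and 968 on day -17 and 114, 314 and 228 on day 1 (-2.55 ± 0.81, adjusted p = 0.0436), but its call ended without day -17 pool 2 or 3, day 1 pool 1, 2 or 3 or day 17 pool 1, 2 or 3 or in a fit of the 6 samples, after median centring, unfiltered, with no trend term or after quantile normalization (adjusted p from 0.0516 to 0.101).

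The extracellular matrix showed few calls. Of 12 collagens 0 rose and 1 fell (0 and 6 with E. coli scaling), the fall being COL2A1, the cartilage collagen (-2.50 ± 0.67, adjusted p = 0.0229), whose call ended without day -17 pool 1, 2 or 3 or day 1 pool 2 (adjusted p from 0.0582 to 0.0675). Of 34 matrix glycoproteins and proteoglycans 2 rose and 4 fell (1 and 12 with E. coli scaling). LUM, a proteoglycan that spaces collagen fibrils, had 14115, 11719 and 9981 on day -17 and 8455, 3544 and 5437 on day 1 (-1.11 ± 0.26, adjusted p = 0.0141). VCAN, a large proteoglycan of loose matrix, had 2357, 2894 and 2743 on day -17 and 1432, 859 and 1778 on day 1 (-1.03 ± 0.23, adjusted p = 0.0104). MGP, matrix Gla protein, an inhibitor of calcification, moved the other way with 16257, 15047 and 18659 on day -17 and 28299, 43605 and 42178 on day 1 (1.17 ± 0.19, adjusted p = 0.00231).

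The matrix counts depended on day 1 pool 1: without it 17 matrix glycoprotein and 3 collagen genes were called, whereas without day -17 pool 1 or 3, day 1 pool 2 or day 17 pool 1 there were 3 matrix calls, and without day -17 pool 1 or 3 there was no collagen call; 2 collagens were called without day -17 pool 2, after median centring or with the pools blocked by number. For 10 of the 11 fibroblast markers the lowest pool was pool 2 on either day. Whether that order bears on the matrix counts was not tested.

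Among membrane proteins, some mucins and tight junction genes of luminal cells rose, while most members of either list were not called. Of 8 mucin-like proteins 3 rose and 1 fell (3 and 3 with E. coli scaling). MUC1 and MUC15, mucins of the apical membrane and of the milk fat globule, had 558, 406 and 484 on day -17 and 6035, 3188 and 7997 on day 1 (3.48 ± 0.28, adjusted p = 4.56e-05) and 1371, 1420.0 and 1602 on day -17 and 13022, 11015 and 17506 on day 1 (3.22 ± 0.17, adjusted p = 2.49e-06), both without overlap of the days. PARM1, a mucin-like protein, fell (-0.76 ± 0.20, adjusted p = 0.0223), a call that ended without day -17 pool 3 or day 1 pool 2 or after median centring or after quantile normalization (adjusted p from 0.0504 to 0.0814). CLDN3, a claudin that seals tight junctions, had 411, 715 and 634 on day -17 and 1353, 2221 and 2791 on day 1 (1.83 ± 0.29, adjusted p = 0.00212). OCLN, occludin of the same junctions, had 805, 1263 and 1069 on day -17 and 1838, 2669 and 2013 on day 1 (1.06 ± 0.19, adjusted p = 0.00397).

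CLDN4, a related claudin, rose (1.19 ± 0.28, adjusted p = 0.0129), a call that ended without day 1 pool 3 (adjusted p = 0.0509). Of 16 tight junction genes 4 rose and 1 fell (3 and 2 with E. coli scaling), with 3 calls without day -17 pool 3 and 2 without day 1 pool 3. Among 12 cadherin and desmosome genes 0 were called (0 and 3 with E. coli scaling). One setting at a time, 1 fell after quantile normalization, with the pools blocked by number or without day 1 pool 1, and 1 rose with the mean over probe sets. PPL, periplakin of the desmosome, came nearest, with 2989, 1288 and 1123 on day -17 and 1274, 524 and 271 on day 1 (-1.53 ± 0.51, adjusted p = 0.0517), and passed with E. coli scaling (0.0147), with a pseudocount of 16 (0.0496), with the stricter filter (0.0458), with the pools blocked by number (0.00654), with pool number as a random effect (0.0277) and without day 1 pool 1 (0.00477).

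No integrin of 7, no connexin of 4 and no keratin or other intermediate filament gene of 8 passed. With E. coli scaling 1 integrin, 1 connexin and 4 keratin or filament genes fell and none rose. With the pools blocked by number 1 integrin and 2 keratin or filament genes fell, without day -17 pool 1 again 2 keratin or filament genes, and without day 1 pool 1 2 integrins and 1 connexin, whereas after median centring 1 integrin rose. Their smallest p values belonged to ITGB5 (-0.54 ± 0.23, adjusted p = 0.116), GJA1 (-0.47 ± 0.27, adjusted p = 0.222) and KRT18 (-1.33 ± 0.51, adjusted p = 0.081). As falls, ITGB5 passed with E. coli scaling (0.0105), with the pools blocked by number (0.0418) and without day 1 pool 1 (0.0158), GJA1 with E. coli scaling (0.0272) and without day 1 pool 1 (0.0413), and KRT18 with E. coli scaling (0.0163), with the pools blocked by number (0.0215) and without day -17 pool 1 (0.00922). Among other adhesion molecules 3 of 17 rose and 0 fell (3 and 4 with E. coli scaling). SDC4, a heparan sulphate proteoglycan of the membrane, had 131, 148 and 106 on day -17 and 269, 392 and 449 on day 1 (1.504 ± 0.22, adjusted p = 0.00159), and EPCAM, an adhesion protein of epithelial cells, had 6785, 9418 and 10443 on day -17 and 15803, 14922 and 22489.8 on day 1 (0.997 ± 0.19, adjusted p = 0.0047).

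Among growth factor receptors the calls were falls. Of 16 measured receptor tyrosine kinases, ephrin and plexin genes 0 rose and 6 fell (0 and 8 with E. coli scaling), that is 37.5% against 10.4% of all genes. None rose and 3 fell after median centring, and 4 fell after quantile normalization, while 5 of the 6 calls depended on single arrays. Called members numbered 1 without day -17 pool 2 or day 1 pool 3, 2 without day -17 pool 3 and 3 without day -17 pool 1. Without day 1 pool 1, 1 rose and 4 fell, and with the mean over probe sets 0 rose and 4 fell. EGFR, the receptor of EGF and TGFA, named after its values were seen, had 2775, 3041 and 3586 on day -17 and 1791, 2270.0 and 1750.1 on day 1 (-0.70 ± 0.15, adjusted p = 0.0096), with all day 1 pools below all pools of late pregnancy. FGFR2, needed for mammary branching, had 221, 495 and 213 on day -17 and 56.8, 192 and 69.7 on day 1 (-1.64 ± 0.50, adjusted p = 0.0389), and its call ended without day -17 pool 1, 2 or 3, day 1 pool 1 or 3 or day 17 pool 1 or 3 or in a fit of the 6 samples, after median centring, unfiltered, with no trend term or after quantile normalization (adjusted p from 0.0502 to 0.135). KIT, a marker of luminal progenitors, fell (-0.82 ± 0.24, adjusted p = 0.0325), a call that ended without day -17 pool 2 or 3 or day 1 pool 1 or 3 or after median centring or after quantile normalization (adjusted p from 0.0561 to 0.108). NTRK3, a neurotrophin receptor, fell (-1.52 ± 0.43, adjusted p = 0.0301), a call that ended without day -17 pool 1 or 2 or day 1 pool 1 or 3 (adjusted p from 0.0519 to 0.105).

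Receptors of the TGF-beta family likewise had no rise: of 9, 0 rose and 2 fell (0 and 5 with E. coli scaling). BAMBI, a decoy receptor that damps this signalling, had 335, 577 and 428 on day -17 and 145, 83.6 and 109 on day 1 (-1.99 ± 0.29, adjusted p = 0.00151), and ACVR1, a receptor kinase for BMPs and activin, had 876, 947 and 749 on day -17 and 468, 393 and 285 on day 1 (-1.19 ± 0.24, adjusted p = 0.00644). The days did not overlap in either. LRP2, the endocytic receptor megalin, had 133, 282 and 154 on day -17 and 46.01, 5.16 and 29.4 on day 1 (-3.23 ± 0.73, adjusted p = 0.0113), and its call ended without day -17 pool 2 (adjusted p = 0.0514).

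G protein-coupled receptors went both ways: of 38, 4 rose and 6 fell (3 and 13 with E. coli scaling). CXCR4, a chemokine receptor, had 2821, 4090.3 and 3503 on day -17 and 351, 763 and 504 on day 1 (-2.74 ± 0.27, adjusted p = 0.000151). CHRM1, a muscarinic acetylcholine receptor, had 126, 164 and 159 on day -17 and 17.8, 62.4 and 17.2 on day 1 (-2.47 ± 0.55, adjusted p = 0.0106). PTGFR, the prostaglandin F receptor, had 1169.7, 421 and 587 on day -17 and 238, 137 and 204 on day 1 (-1.81 ± 0.39, adjusted p = 0.00941). All 3 were higher in every pool of late pregnancy. AGTR1, an angiotensin receptor, fell (-1.30 ± 0.37, adjusted p = 0.0309), a call that ended without day -17 pool 1 or 3 or day 1 pool 2 or 3 or in a fit of the 6 samples or with no trend term (adjusted p from 0.0503 to 0.114). NPY1R, a neuropeptide Y receptor, fell (-1.43 ± 0.35, adjusted p = 0.0155), a call that ended without day -17 pool 2 or 3 (adjusted p from 0.0635 to 0.0671).

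The rises were led by GPRC5B, an orphan receptor, with 776, 452 and 282 on day -17 and 2687, 1479.6 and 2286 on day 1 (2.17 ± 0.34, adjusted p = 0.00188). GPR160, another orphan, had 1752, 1380.0 and 1819.9 on day -17 and 7447, 5242 and 7563 on day 1 (2.02 ± 0.18, adjusted p = 9.14e-05), and DRD2, the dopamine receptor D2, had 422, 253 and 255 on day -17 and 688, 943 and 922 on day 1 (1.49 ± 0.22, adjusted p = 0.00147). In each, the 3 pools of day 1 were the highest. TLR2, the receptor for bacterial lipoproteins, had 186, 319 and 367 on day -17 and 2508, 2146 and 2912 on day 1 (3.16 ± 0.23, adjusted p = 2.45e-05), with all day 1 pools above all pools of late pregnancy. Among pattern recognition and lectin receptors 4 of 26 rose and 3 fell (1 and 12 with E. coli scaling), and the call of TLR2 was the 1 that held without every array. CD14, its partner in sensing bacteria, rose (1.08 ± 0.26, adjusted p = 0.015), a call that ended without day 1 pool 2 or with E. coli scaling (adjusted p from 0.0548 to 0.0703). Members called came to 2 without day 1 pool 2, 3 without day -17 pool 3 or day 1 pool 3, 4 without day -17 pool 1 or 2 and 12 without day 1 pool 1.

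Among cytokine receptors 4 of 19 rose and 2 fell (1 and 7 with E. coli scaling), with 3 calls without day -17 pool 3 or day 1 pool 3. LEPROT, a membrane protein encoded at the leptin receptor locus, rose (0.74 ± 0.11, adjusted p = 0.00142). IL11RA, a receptor chain for interleukin 11, fell (-1.01 ± 0.27, adjusted p = 0.0223), a call that ended without day -17 pool 3 or day 1 pool 2 or 3 (adjusted p from 0.0695 to 0.0857). Of 14 MHC genes 1 rose and 4 fell (0 and 6 with E. coli scaling). SLA-DQB1 and SLA-DRB1, chains of class II molecules, had 2179, 3792 and 4035 on day -17 and 1893, 1243 and 1415 on day 1 (-1.11 ± 0.23, adjusted p = 0.00836) and 2321, 3043 and 3265 on day -17 and 1553, 1231 and 1324 on day 1 (-1.06 ± 0.17, adjusted p = 0.00191), with probe sets that may read several alleles and related genes. The number of called members was 2 without day -17 pool 2 or day 1 pool 3 and 3 without day -17 pool 3 or day 1 pool 2. T and NK cell markers, summed over 5 genes, stood at 633, 897 and 948 on day -17 and 713, 423 and 453 on day 1, and macrophage markers over 8 genes at 13668, 13083 and 12000.3 and 18624, 9260.3 and 6851. Their part in the MHC falls was not tested. Of the other lists, 2 of 8 myoepithelial and smooth muscle genes rose, 1 of 9 endothelial and 1 of 3 erythrocyte genes fell, 0 of 3 B and plasma cell genes were called, nor was the 1 measured skin keratinocyte gene, and no skeletal muscle marker passed the filter on dim signals.

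**Figure D5:**
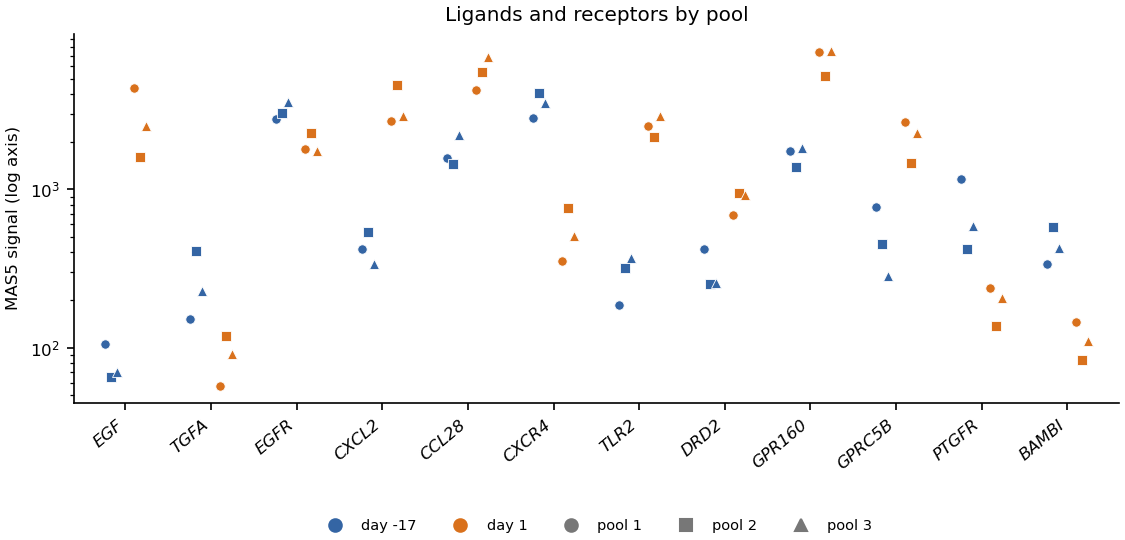
MAS5 signal (log axis) of 12 ligands and receptors, 1 point per pool, with day -17 in blue, day 1 in orange and the pool number by shape. EGF, CXCL2, CCL28, TLR2, DRD2, GPR160 and GPRC5B lie higher on day 1, whereas TGFA, EGFR, CXCR4, PTGFR and BAMBI lie lower.

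Calcium and sodium handling included several rises. ORAI1, the pore of store-operated calcium entry, had 646, 526 and 641 on day -17 and 3007, 2547 and 3904 on day 1 (2.37 ± 0.17, adjusted p = 2.06e-05). ATP2C2, a Golgi pump for calcium and manganese, had 133, 417 and 299 on day -17 and 1378, 591 and 984 on day 1 (1.86 ± 0.40, adjusted p = 0.009). S100G, the calcium carrier calbindin-D9k, had 63.1, 73.7 and 76.3 on day -17 and 144, 273 and 257 on day 1 (1.61 ± 0.28, adjusted p = 0.00308). All 3 were higher in every day 1 pool. ATP1B3, a beta subunit of the sodium pump, had 2271, 2033 and 1695 on day -17 and 3622, 3615 and 5637 on day 1 (1.08 ± 0.19, adjusted p = 0.00318), and FXYD2, the gamma subunit, had 31.01, 67.2 and 52.5 on day -17 and 176, 96.9 and 116 on day 1 (1.39 ± 0.33, adjusted p = 0.0138). FXYD6, a relative that also binds the pump, fell, with 2056, 2424 and 2270.5 on day -17 and 1103, 873 and 1048 on day 1 (-1.16 ± 0.19, adjusted p = 0.0025).

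Counted by family, of 11 P-type pumps 4 rose and 0 fell (3 and 4 with E. coli scaling), and 5 and 2 with the pools blocked by number. Of 30 ion channels and their subunits 3 rose and 3 fell (2 and 9 with E. coli scaling), with 3 calls without day -17 pool 1 or day 1 pool 2 or 3. FXYD7, of the same family as FXYD2, had the largest fall of the list (-2.26 ± 0.62, adjusted p = 0.0253), a call that ended without day -17 pool 1 or 3 or day 1 pool 2 or 3 or in a fit of the 6 samples (adjusted p from 0.0614 to 0.0954). Of 4 aquaporins 1 rose and 1 fell (0 and 2 with E. coli scaling), and 1 and 0 after median centring or quantile normalization. Called members numbered 0 without day -17 pool 1 or 2 or day 1 pool 3 and 1 without day -17 pool 3, day 1 pool 1 or day 17 pool 1. AQP5, a water channel of secretory glands, rose (1.07 ± 0.30, adjusted p = 0.0299), a call that ended without day -17 pool 1 or 2 or day 1 pool 3 or with E. coli scaling (adjusted p from 0.0633 to 0.11). AQP11, an intracellular member, fell (-0.88 ± 0.27, adjusted p = 0.042), a call that ended without day -17 pool 1, 2 or 3, day 1 pool 1 or 3 or day 17 pool 1 or after median centring, unfiltered or after quantile normalization (adjusted p from 0.0555 to 0.125).

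Solute carriers, with 98 genes measured, had 25 rises and 4 falls, with 14 and 25 with E. coli scaling, and the share of rises was 25.5% against 15.3% of all genes. SLC34A2, the sodium-coupled phosphate carrier of the apical membrane, had 1149, 720.1 and 648 on day -17 and 15774, 9341 and 17668 on day 1 (4.08 ± 0.26, adjusted p = 7.95e-06). SLC9A3R1, a scaffold that holds such carriers at the apical membrane, had 1639, 2250.3 and 2351 on day -17 and 4611, 5089 and 6357 on day 1 (1.37 ± 0.17, adjusted p = 0.000538). SLC28A3, which concentrates nucleosides, had 1096, 1419.6 and 1258 on day -17 and 4026, 7899.7 and 5407 on day 1 (2.15 ± 0.24, adjusted p = 0.000329). None of these overlapped between the days.

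For sugars and their relatives of the SLC2, SLC5, SLC37, SLC45 and SLC50 groups, 4 of 15 rose and 0 fell (3 and 4 with E. coli scaling), and 6 and 1 with the pools blocked by number. SLC50A1, a sugar carrier of the Golgi, had 661, 753 and 666 on day -17 and 2146, 1882 and 3069.6 on day 1 (1.74 ± 0.18, adjusted p = 0.000188). SLC2A4, the insulin-responsive glucose carrier GLUT4, had 70.9, 45.7 and 46.6 on day -17 and 183, 135 and 133 on day 1 (1.48 ± 0.32, adjusted p = 0.0096). SLC5A6, which takes up biotin and pantothenate, had 518, 355 and 483 on day -17 and 1048, 1137 and 1936 on day 1 (1.57 ± 0.24, adjusted p = 0.00173). The day 1 pools were the 3 highest in each.

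Of the carriers that load nucleotide sugars and other substrates into the Golgi and vesicles, 4 of 11 rose and 0 fell (3 and 1 with E. coli scaling). SLC35B1, of the nucleotide sugar carrier family, had 896, 1113 and 1105 on day -17 and 2549, 3158 and 4152 on day 1 (1.64 ± 0.18, adjusted p = 0.00031). SLC35B2, which brings in the sulphate donor PAPS, had 793, 803 and 826 on day -17 and 1713, 1423 and 2448 on day 1 (1.17 ± 0.18, adjusted p = 0.00179), and SLC35A3, which brings in UDP-N-acetylglucosamine, had 312, 277 and 278 on day -17 and 578, 688 and 550.2 on day 1 (1.06 ± 0.14, adjusted p = 0.000912). For metals, 4 of 13 rose and 0 fell (2 and 1 with E. coli scaling). SLC39A7, which releases zinc from the early secretory pathway, had 808, 886 and 840.3 on day -17 and 1720.4, 1828 and 2610.4 on day 1 (1.26 ± 0.16, adjusted p = 0.00067), and SLC31A1, the copper importer, had 1233, 1422 and 1580.3 on day -17 and 2717, 3820.1 and 3749 on day 1 (1.27 ± 0.16, adjusted p = 0.000531).

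For amino acids and peptides, 6 of 18 rose and 0 fell (1 and 2 with E. coli scaling), SLC6A14 being the rise that E. coli scaling left. SLC1A4, a carrier of small neutral amino acids, rose by 1.06 ± 0.23, a call lost with E. coli scaling (adjusted p = 0.052). SLC38A10, of the glutamine carrier family, rose by 0.81 ± 0.16, a call lost with E. coli scaling (adjusted p = 0.0564). SLC7A4, a relative of the cationic amino acid carriers, rose (1.29 ± 0.38, adjusted p = 0.0354), a call that ended without day -17 pool 1, 2 or 3, day 1 pool 2 or day 17 pool 2 or 3 or in a fit of the 6 samples, with E. coli scaling or unfiltered (adjusted p from 0.0504 to 0.121). For mitochondria, 3 of 21 rose and 1 fell (2 and 9 with E. coli scaling). SLC25A39 and the ADP/ATP carrier SLC25A5 rose (0.86 ± 0.15, adjusted p = 0.00347 and 0.81 ± 0.15, adjusted p = 0.0045), whereas SLC25A21, a carrier of oxodicarboxylates, fell (-0.98 ± 0.20, adjusted p = 0.00769).

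The TMEM group, named for membrane spans rather than function, is 1 family of the membrane class and included in its counts. Of its 95 genes 33 rose and 7 fell (14 and 27 with E. coli scaling), with 26 calls without day 1 pool 3. TMEM170A had 264, 214 and 239.8 on day -17 and 1493, 1070.3 and 2255 on day 1 (2.69 ± 0.26, adjusted p = 0.000144). TMEM63A, a mechanically gated channel, had 35.2, 44.7 and 48.4 on day -17 and 170.2, 136 and 114 on day 1 (1.70 ± 0.30, adjusted p = 0.00333). TM7SF2, a sterol reductase, and TMED7, a cargo receptor of the early secretory pathway, rose too (1.55 ± 0.23, adjusted p = 0.0015 and 1.41 ± 0.16, adjusted p = 0.000326). The largest falls were TMEM25, with 184, 274 and 319 on day -17 and 83.1, 93.3 and 33.6 on day 1 (-1.98 ± 0.44, adjusted p = 0.00982), and TMEM123 (-1.02 ± 0.20, adjusted p = 0.00624). Of 16 tetraspanins 3 rose and 1 fell (1 and 5 with E. coli scaling), with TSPAN2 the call that E. coli scaling left among the rises.

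Inside the cell, enzymes that build glycans went both ways: 4 of 22 rose and 3 fell (3 and 7 with E. coli scaling), with 4 calls without day -17 pool 2 or 3 or day 1 pool 3. B4GALT1, the galactosyltransferase of lactose synthase, had 2495, 1954 and 2458 on day -17 and 13815, 12857 and 16916 on day 1 (2.66 ± 0.16, adjusted p = 5.14e-06). ST6GALNAC4, a sialyltransferase, had 555, 425 and 356 on day -17 and 2275, 2132 and 1908 on day 1 (2.26 ± 0.20, adjusted p = 6.98e-05), and ST3GAL1, another, had 668, 575 and 725 on day -17 and 1324, 1111 and 1869 on day 1 (1.101 ± 0.21, adjusted p = 0.00507). FUT8, which adds core fucose, fell (-1.31 ± 0.34, adjusted p = 0.0211), a call that ended without day -17 pool 1, 2 or 3 or day 1 pool 2 or 3 (adjusted p from 0.0507 to 0.0666).

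Of 30 enzymes that act on aldehydes, steroids and esters 8 rose and 5 fell (4 and 14 with E. coli scaling), with 8 calls without day 1 pool 2 or 3. Beside the falls of PON3 and CES1, PON2, a relative of PON3, had 3779, 2171 and 2730.5 on day -17 and 1614, 844 and 793 on day 1 (-1.46 ± 0.30, adjusted p = 0.00701). HSD17B7, which serves cholesterol synthesis, had 100.8, 209 and 108 on day -17 and 1143, 1241 and 1514 on day 1 (3.29 ± 0.45, adjusted p = 0.000997), and HSD11B1, which regenerates active glucocorticoid, had 3641, 2045 and 1942 on day -17 and 4997, 7381 and 4914 on day 1 (1.22 ± 0.27, adjusted p = 0.0101). Of 10 P450 genes 1 rose and 3 fell (0 and 5 with E. coli scaling). Members called came to 1 without day -17 pool 2 or 3 and 2 without day 1 pool 2 or 3. In the glutathione family 4 of 18 rose and 2 fell (3 and 6 with E. coli scaling). GGT1, which cleaves extracellular glutathione, had 25.2, 14.03 and 30.8 on day -17 and 74.8, 73.5 and 78.1 on day 1 (1.77 ± 0.39, adjusted p = 0.0101). All 6 of these signals lay under the 40th percentile of their arrays, so the probe set passed the filter through day 17 and the size of its difference is uncertain. GSTO1 fell (-0.88 ± 0.16, adjusted p = 0.00382). The number of called members was 3 without day -17 pool 1 or day 1 pool 2 or 3.

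Of the genes that damp or relay signals, such as dual specificity phosphatases and SGK kinases, 6 of 23 rose and 1 fell (3 and 8 with E. coli scaling), with 4 calls without day -17 pool 3 or day 1 pool 3. DUSP7 and DUSP1, phosphatases that switch off MAP kinases, had 296, 334 and 215 on day -17 and 957, 560.5 and 942 on day 1 (1.52 ± 0.24, adjusted p = 0.00188) and 2306, 1542 and 1759.6 on day -17 and 5734, 3574 and 4887 on day 1 (1.33 ± 0.19, adjusted p = 0.00124). DUSP23 rose as well (1.31 ± 0.29, adjusted p = 0.0111). SGK2, of the serum- and glucocorticoid-regulated kinases, was the fall (-3.09 ± 1.01, adjusted p = 0.0493), a call that ended without day -17 pool 1 or 3, day 1 pool 2 or 3 or day 17 pool 1, 2 or 3 or in a fit of the 6 samples, with the mean over its probe sets, after median centring, unfiltered, with no trend term or after quantile normalization (adjusted p from 0.0508 to 0.132). CA11, a carbonic anhydrase-like protein, fell (-2.59 ± 0.69, adjusted p = 0.0232), a call that ended without day -17 pool 2 or 3 or day 1 pool 2 or 3 or in a fit of the 6 samples (adjusted p from 0.0558 to 0.0819). S100B, a calcium-binding protein of glia and fat, fell, with 759, 567 and 646 on day -17 and 304, 155 and 258 on day 1 (-1.51 ± 0.26, adjusted p = 0.00338).

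A last set was chosen by the brightness of its probe sets outside the milk proteins, which ranks no gene's level against another's: FABP3, EF1ALPHA and MGP among the rises and RPL34, EIF3E and PCBP2 among the falls. FABP3, which binds fatty acids in the cytosol, had 17386, 18989.8 and 22589 on day -17 and 35514, 40906 and 46449.6 on day 1 (1.06 ± 0.13, adjusted p = 0.000463). EIF3E, a subunit of a translation initiation factor, had 13165, 14049 and 13979.9 on day -17 and 8095, 9101 and 6917 on day 1 (-0.78 ± 0.12, adjusted p = 0.00192), and PCBP2, an RNA-binding protein, had 11754, 14582 and 14267 on day -17 and 6291, 8651 and 5955 on day 1 (-0.97 ± 0.16, adjusted p = 0.00293), both without overlap of the days. The call of PCBP2 ended with the mean over its probe sets (adjusted p = 0.0889). EF1ALPHA, the elongation factor, rose by little (0.35 ± 0.11, adjusted p = 0.0387), with 3 of its other 6 probe sets of opposite sign, and its call ended without day -17 pool 1 or 2, day 1 pool 2 or 3 or day 17 pool 1, 2 or 3 or in a fit of the 6 samples, with E. coli scaling, with the mean over its probe sets, unfiltered, with no trend term or after quantile normalization (adjusted p from 0.0582 to 0.47). Its sign reversed with E. coli scaling (-0.08) and after quantile normalization (-0.11). RPL34, a ribosomal protein, fell by little (-0.38 ± 0.11, adjusted p = 0.0326), with its other probe set of opposite sign, and its call ended without day -17 pool 2 or 3, day 1 pool 1 or 3 or day 17 pool 2 or in a fit of the 6 samples, with the mean over its probe sets, after median centring, unfiltered or with no trend term (adjusted p from 0.0507 to 0.771).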

How the data were processed

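RNA of 9 pools was hybridized to Affymetrix porcine GeneChips; the deposited intensities are linear signals from MAS5, per the submitters' processing notes, and its version is not given in the sources used here. The log2 of the deposited signals was fitted here in limma 3.58.1 (R 4.3.3) with an intensity trend over all 9 arrays, as day 1 minus day -17, with Benjamini-Hochberg adjustment over 15519 of 23999 endogenous probe sets. Tested probe sets reached the 40th percentile of signals on 3 or more of the 9 arrays. The number of arrays limits the precision. In simulated data with 100 changes of 2-fold and 100 of 4-fold among 15519 probe sets, 53 and 84 were recovered, with 5 false calls. Far fewer probe sets changed there than the 24.1% called here, and errors were drawn independently, so these rates do not describe this comparison.

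In the platform annotation 10099 probe sets carried 1 gene symbol, 198 several and 13826 none, and the last 2 kinds were left out of gene counts. A gene with several tested probe sets (1406 of 5670) was read from the brightest. Families were formed from symbols, and the members, lists and tests were chosen with earlier results of these data known. Named were the switched genes, up to 4 rises and 4 falls per family, the nearest member of a family with no call, and the 3 brightest called genes each way outside the milk proteins; within that rule, genes whose call ended without an array are often counted only. Marker genes and genes chosen after their values were seen are additional.

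Deviations of pools of the same number correlated with r = 0.506, 0.345 and 0.235, against -0.387 to 0.113 for other pairs. The sources used here do not say that a number marks the same sows on each day. Unless another fit is named, p-values come from the fit by day alone, which is unpaired. Fits with the pool number as a block, which treat equal numbers as paired, are given where they change a call. The other alternatives are quantile normalization, median centring, E. coli scaling (21 control probe sets), a pseudocount of 16, no filter or a 60th percentile filter, no intensity trend, the 6 samples alone, the mean over probe sets and each array left out. Protein and promoter sequences were not analysed here.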

Additional observations from a re-analysis of the deposited data

How the results depend on the processing

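Of the 178 genes named as called, 121 kept direction and call under every alternative run and 57 lost the call under at least 1, 24 of them with E. coli scaling; STAT5B and EF1ALPHA also reversed. Counts of called members stayed within 1.5 times in 1204 of 1560 cases. Probe sets that rose numbered 1860, with 814 under E. coli scaling, 817 when at least 2-fold, and 1198 to 2088 with 1 array left out. Probe sets that fell numbered 1876, with 1174 under median centring, 6271 under E. coli scaling, 775 when at least 2-fold, and 912 to 2336 with 1 array left out. Genes switched on numbered 9 to 11, and switched off 1 to 4, with 1 array left out; the 30th and 70th percentiles gave 3 and 0. STAT5B was at 0.04 with the mean over probe sets, and EF1ALPHA at -0.08 with E. coli scaling and -0.11 after quantile normalization. The causes were not tested, beyond the shift of every difference by E. coli scaling.

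With the pools blocked by number (pairing them), 2084 probe sets rose and 2412 fell, and as a random block 2147 and 2316; beyond the calls and family counts given above, the fixed block changed no call of a named gene. Signals near the floor of the arrays, such as those of EDDM3B, LPO and NPG4 in late pregnancy, limit the precision of their differences.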

Other observations

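Genes outside the families, chosen after their values were seen, held further differences that stood without every array left out and under every scaling tried. TCN1, a vitamin B12 binder of secretions, had 92.8, 593 and 244 on day -17 and 6326, 4396 and 10316 on day 1 (4.79 ± 0.55, adjusted p = 0.00037). PDXK, which activates vitamin B6, had 975, 957 and 826 on day -17 and 4603, 4849 and 6470.1 on day 1 (2.52 ± 0.14, adjusted p = 4.4e-06), and SRM, which makes spermidine, had 918, 1009 and 1198 on day -17 and 8776, 9786 and 14199 on day 1 (3.37 ± 0.18, adjusted p = 3.03e-06). MSTN, myostatin, the inhibitor of muscle growth, had 774, 524 and 495 on day -17 and 1833, 3043 and 2048 on day 1 (1.94 ± 0.23, adjusted p = 0.000418), and its other tested probe set was higher too. CFAP161, a cilium-associated protein, had 113, 78.6 and 114 on day -17 and 983, 1092 and 1096 on day 1 (3.39 ± 0.17, adjusted p = 2.04e-06). All day 1 pools of these 5 genes lay above those of late pregnancy.

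Falls of the same kind were those of SCD5, a stearoyl-CoA desaturase, with 457, 717 and 441 on day -17 and 123.3, 81.3 and 88.0 on day 1 (-2.45 ± 0.37, adjusted p = 0.00162), and MYLIP, which marks lipoprotein receptors for degradation, with 3538, 1915 and 1633 on day -17 and 1315, 571 and 302 on day 1 (-1.87 ± 0.46, adjusted p = 0.0156). HOMER2, a scaffold of receptor complexes, had 557, 1121 and 1117 on day -17 and 162, 202 and 358 on day 1 (-1.97 ± 0.42, adjusted p = 0.00861), and SCIN, an actin-severing protein, had 534, 1300.3 and 954 on day -17 and 259, 212 and 218 on day 1 (-1.93 ± 0.33, adjusted p = 0.00308). In HOMER2 and SCIN, day -17 pool 1 was the lowest of its day, as it was for MLPH and FOXA1. On day 17 the mean signals were 47.01 ± 20.5 for SCD5, 564 ± 62.9 for MYLIP, 248 ± 121 for HOMER2 and 171 ± 61.9 for SCIN (SD, n = 3 pools).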
